A study of Rattus norvegicus with 4 samples.

Results

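Metal ion transporters of the solute carrier (SLC) superfamily were taken as the rat RefSeq genes whose symbols begin with Slc8a, Slc8b, Slc11a, Slc24a, Slc30a, Slc31a, Slc39a, Slc40a or Slc41a and end in a number. RefSeq holds 41 such genes; 37 of them had at least 1 named probe on the array, out of 16575 genes measured in all, and 4 (Slc24a4, Slc24a5, Slc39a10 and Slc39a13) had none. The cells were NR8383, a macrophage line established from rat lung lavage, kept for 20 passages and exposed for 4 h to carbon nanotubes carrying carboxyl groups (NRCWE042) at 6.8 cm2 of nanotube per cm2. The 4 arrays carry 4 exposed cultures, replicates 1 to 4, which form the only group used here; unexposed cells were not analysed here, so none of the values can be read as a response to the nanotubes. All cultures come from 1 cell line, and the lung is represented by this line alone.

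Metal ions cross membranes through these carriers because they cannot diffuse through lipid. The ZIP proteins (Slc39a) move zinc, and in some cases iron or manganese, into the cytosol, and the ZnT proteins (Slc30a) move zinc out of it, into organelles or out of the cell. In macrophages, Nramp1 (Slc11a1) draws metals out of the phagosome, DMT1 (Slc11a2) carries ferrous iron into the cytosol, and ferroportin (Slc40a1) exports iron recovered from red cells. Zinc in the cytosol is sensed by the transcription factor MTF1, which binds metal response elements in the promoters of metallothionein genes and of Slc30a1.

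Transcripts of 21 of the 37 members were detected on all 4 arrays, a share of 56.8%, beside 44.4% of all measured genes. A gene counts as detected on an array when the scanner software marked at least 1 of its probes as well above background. A further 3 members were detected on 1 to 3 arrays and 13 on none. By family, 9 of 12 measured zinc importers, 4 of 10 zinc exporters, 2 of 3 iron and manganese carriers, 1 of 2 copper carriers, 2 of 3 magnesium carriers and 3 of 7 calcium exchangers were detected on all 4 arrays. A transcript whose probe missed that mark may still be present at a low level. Levels are log2 processed signal minus the 75th percentile of the sample probes on the same array; probes differ in affinity, so these levels are compared between arrays and never between genes. High and low arrays and SDs are stated on this scale, and they depend on it: all 21 SDs of detected members moved by over 1.5 times when the arrays were scaled to spike-in controls, and 13 did after normexp background correction.

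The arrays were not equally bright. The 75th percentile of processed signal was 128, 131, 98.5 and 49 on replicates 1 to 4, and 38.8%, 36.8%, 35.3% and 31.1% of sample probes were well above background. The lowest level at which a named probe still counted as detected was -2.54, -2.38, -2.08 and -1.24, so a weak transcript was hardest to detect on replicate 4. Members detected numbered 24, 23, 23 and 21 on the 4 arrays. An area of low signal on replicate 3 covers 2139 sample probes; 0 of the 46 member probes lie in it. Of the macrophage markers, 12 of 16 were detected on all arrays, among them Cd68, Ptprc and Lyz2, while Marco, Adgre1, Cd163 and Cd74 were detected on none. Of the markers of other cells, 0 of 9 for lung epithelium, 1 of 6 for fibroblasts (Dcn), 1 of 4 for neutrophils (Camp), 3 of 6 for T cells (Cd3d, Lck and Cd4, the last also known on macrophages) and 2 of 4 for erythroid cells (Hba-a1 and Epor) were detected on all arrays.

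**Figure D1:**
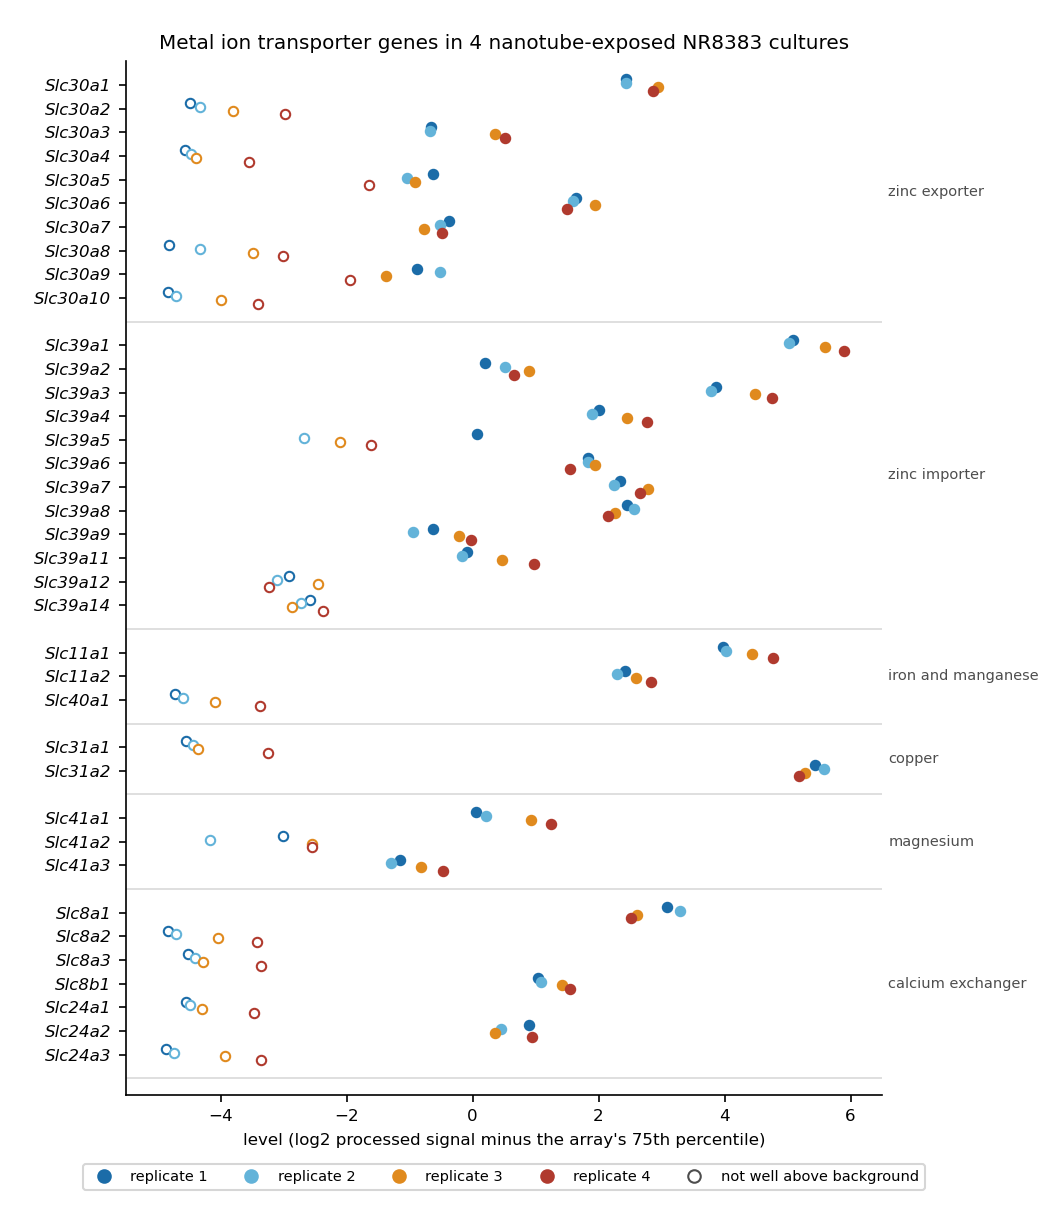
Level of the 37 measured members on each of the 4 arrays, in log2 units relative to the array's 75th percentile, grouped by the ion carried. Filled points are well above background and open points are not; the open points of most members lie furthest right on replicate 4, the dimmest array, as in Slc30a2, from -4.49 on replicate 1 to -2.97 on replicate 4.

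Of the zinc exporters, Slc30a1, Slc30a3, Slc30a6 and Slc30a7 were detected on all 4 arrays. Slc30a1 encodes ZnT1, which exports zinc across the plasma membrane, and read 2.43, 2.43, 2.94 and 2.86 on replicates 1 to 4 (2.66 ± 0.27, SD, n = 4). Slc30a6, whose product pairs with that of Slc30a5 to fill the early secretory pathway with zinc, read 1.64, 1.59, 1.95 and 1.50 (1.67 ± 0.20). Slc30a7, a zinc carrier of the Golgi, read -0.38, -0.52, -0.77 and -0.49 (-0.54 ± 0.17). Within these 3 genes the highest and lowest cultures lay within 1.43-fold of each other on this scale, whereas spike-in scaling gave SDs of 0.41, 0.66 and 0.65. Slc30a3, which encodes ZnT3, known for loading zinc into synaptic vesicles of neurons, read -0.66, -0.68, 0.36 and 0.52 (-0.11 ± 0.64), so replicates 3 and 4 lay above replicates 1 and 2. That SD exceeded those of 96.7% of all detected genes, and the range was 2.29-fold. The SD was 0.27 with spike-in scaling and 0.34 under normexp, so the wide spread does not hold there. Normexp was run with an offset of 50, and the processed signals of this probe were only 81.1, 81.8, 126 and 70.3. The part of the offset in the smaller SD was not tested.

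The probe of Slc30a3 was printed 10 times on each array, which separates spot error from differences between arrays. The SD between its spots was 0.14, 0.16, 0.10 and 0.13 within replicates 1 to 4, with 1 spot left out on replicate 3. The highest spot of replicates 1 and 2 lay at -0.48 and -0.39, below the lowest spot of replicates 3 and 4 at 0.18 and 0.26. All the spots used were well above background. This separation depends on the scale. With spike-in scaling the probe lay at -0.17, -0.05, 0.39 and -0.17 around its own mean. There the spots of replicate 4 (-0.43 to 0.08) overlapped those of replicates 1 and 2. That scaling moved whole arrays, with a median shift of all detected genes of 0.31, 0.45, -0.03 and -0.71. Relative to the median detected gene, which rescaling an array does not change, Slc30a3 lay at -0.47, -0.50, 0.42 and 0.53. The spread over arrays holds the culture, the labelling and the scaling of the array together, whose parts were not tested.

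**Figure D2:**
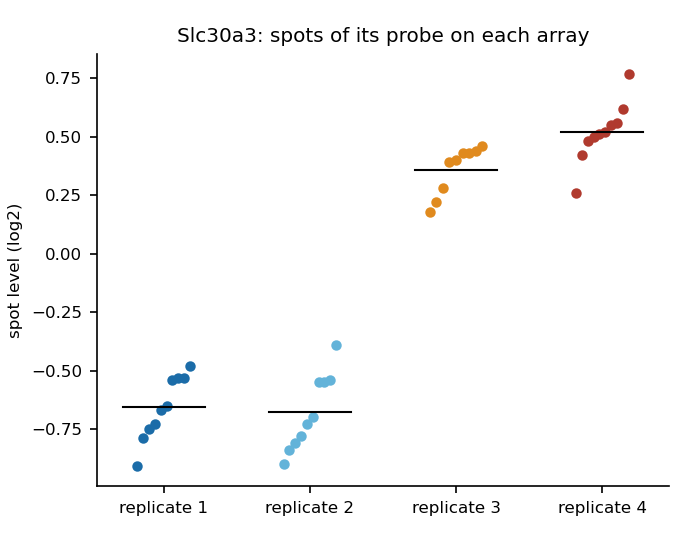
Level of each spot of the Slc30a3 probe on each array, in log2 units relative to the array's 75th percentile, sorted within the array; black bars are means. The spots of replicates 1 and 2 (-0.91 to -0.39) do not overlap those of replicates 3 and 4 (0.18 to 0.77) on this scale; with spike-in scaling those of replicate 4 overlap those of replicates 1 and 2.

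Slc30a5 and Slc30a9, a carrier of the early secretory pathway and a mitochondrial zinc exporter, were detected on replicates 1 to 3 and missed on replicate 4. Slc30a5 read -0.62, -1.04, -0.92 and -1.65, and Slc30a9 read -0.88, -0.52, -1.37 and -1.94. Their levels on replicate 4 lie below the lowest level at which any named probe was detected there, -1.24. Without replicate 4 the detected members rose to 23 of 37 (62.2%, beside 47.7% of all genes), the additions being these 2. The same 23 members were detected on at least 3 of 4 arrays, as were 48.2% of all genes. Without replicate 1, 2 or 3 the members detected numbered 21 each time, beside 44.5%, 44.5% and 44.7% of all genes. Slc30a2, Slc30a4, Slc30a8 and Slc30a10 were detected on no array; Slc30a8 fills insulin granules with zinc and Slc30a10 exports manganese.

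Promoter sequences show where matches to the core of the metal response element stand in the zinc exporters. The element was searched as the 7-base core TGCACNC or TGCGCNC on both strands, from 250 bases before to 50 after the start, and overlapping matches were counted as 1 site. Slc30a1, detected on all arrays, holds 2 sites, beginning at positions -91 and -18 from the start, whereas Slc30a2, detected on none, holds 3 in 1 of its 2 promoters in the table, at positions -89, -21 and 39, and 0 in the other. The promoters with sites, from RefSeq (build GRCr8, plus strand, 5′ to 3′) are shown because these zinc exporters hold matches and differ in detection; capitals mark the sites. Both sites of Slc30a1 and the sites of Slc30a2 at -21 and 39 match on the opposite strand. Of the other zinc exporters, Slc30a3 and Slc30a6, detected on all arrays, hold 0 sites, and Slc30a4, detected on none, holds 3. Slc30a5 holds 1 and Slc30a9 holds 0, both missed on replicate 4. Slc30a7, Slc30a8 and Slc30a10 have no promoter in the table.

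Slc30a1, chr13:106021769-106022068: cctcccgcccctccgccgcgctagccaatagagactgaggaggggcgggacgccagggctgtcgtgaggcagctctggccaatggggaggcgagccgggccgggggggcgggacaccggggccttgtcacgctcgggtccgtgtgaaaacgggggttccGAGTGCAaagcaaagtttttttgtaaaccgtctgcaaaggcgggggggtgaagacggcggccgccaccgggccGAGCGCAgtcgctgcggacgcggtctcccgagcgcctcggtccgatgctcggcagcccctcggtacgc
Slc30a2, chr5:151843201-151843500: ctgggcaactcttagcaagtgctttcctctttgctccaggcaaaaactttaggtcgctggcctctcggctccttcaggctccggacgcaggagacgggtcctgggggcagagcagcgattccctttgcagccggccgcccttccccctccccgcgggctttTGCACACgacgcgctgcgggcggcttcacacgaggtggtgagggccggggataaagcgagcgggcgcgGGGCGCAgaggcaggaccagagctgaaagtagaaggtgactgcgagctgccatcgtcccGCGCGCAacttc

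Of all 41 genes of the set, measured or not, 32 have a promoter in the table, and 13 of these held at least 1 site (40.6%), beside 26.3% of 27456 genes, and 8 held 2 or more (25.0%, beside 6.05%). Among the 29 measured members in the table, 12 held at least 1 site. Over all genes, promoters of those detected on all 4 arrays are richer in CG dinucleotides, which the core TGCGCNC contains: the median was 21 per 300 bases in all detected genes, 7 in measured genes not detected on all 4 arrays and 22 in the members. Within the set the order was the other way, with 20.5 in 16 members detected on all 4 arrays (4 to 39). It was 30.5 in 10 members detected on none (1 to 50). Members detected on 1 to 3 arrays are in neither group, so these groups are not the same as those over all genes. Among all detected genes, 36.2% held a site and 10.1% held 2 or more. In measured genes not detected on all 4 arrays the shares were 27.7% and 6.46%. Detected members held a site in 7 of 16 cases and members detected on no array in 4 of 10, so sites were present in both. The part of base composition in these counts was not tested, and a match is a run of letters, not a measured binding site.

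The zinc importers were the family with most members detected. Slc39a1, Slc39a2, Slc39a3, Slc39a4, Slc39a6, Slc39a7, Slc39a8, Slc39a9 and Slc39a11 were above background on every array. Slc39a1, Slc39a2 and Slc39a3 encode carriers that take up zinc at the plasma membrane. Slc39a1 read 5.09, 5.02, 5.60 and 5.90 (5.41 ± 0.42), Slc39a2 read 0.20, 0.52, 0.90 and 0.66 (0.57 ± 0.29) and Slc39a3 read 3.86, 3.78, 4.49 and 4.76 (4.22 ± 0.48). Slc39a1 and Slc39a3 were lowest on replicate 2 and highest on replicate 4, with ranges of 1.84-fold and 1.97-fold. Slc39a4, the carrier of zinc absorption in the intestine, read 2.00, 1.89, 2.45 and 2.77 (2.28 ± 0.41) and had the same order of arrays.

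The organelle members of the ZIP family were detected as well. Slc39a7, which releases zinc from the endoplasmic reticulum and Golgi into the cytosol, read 2.34, 2.25, 2.78 and 2.66 (2.51 ± 0.25). Slc39a9, a carrier of the Golgi region, read -0.63, -0.94, -0.22 and -0.02 (-0.45 ± 0.41), and Slc39a11 read -0.09, -0.16, 0.47 and 0.97 (0.30 ± 0.53). These 3 genes were lowest on replicate 2. Each of the 2 promoters of Slc39a7 in the table, which overlap, holds 3 sites of the metal response core, in the first at positions -99, -91 and -31.

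Slc39a6 and Slc39a8 differed from most of the family in having low values on replicate 4. Slc39a6, known as LIV-1, read 1.83, 1.83, 1.94 and 1.55 (1.79 ± 0.17). Slc39a8 encodes ZIP8, which carries zinc and manganese and is a target of NF-kB in macrophages; it read 2.46, 2.56, 2.26 and 2.15 (2.36 ± 0.18). Both stayed within 1.32-fold over the cultures on this scale, but their SDs were 0.72 and 0.77 with spike-in scaling and 0.27 and 0.43 under normexp. Slc39a12, known from brain, and Slc39a14, which carries manganese and iron that is not bound to transferrin, were detected on no array; Slc39a14 read -2.58, -2.73, -2.87 and -2.38. Where a signal had only to be positive and significant, a looser mark of the scanner software, Slc39a14, Slc39a5, Slc41a2, Slc30a5 and Slc30a9 also counted as detected, 26 of 37 members (70.3%) beside 55.7% of all genes.

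Slc39a5, known from pancreas and intestine, was detected on replicate 1 alone. Its brighter probe read 0.07 there and -2.68, -2.11 and -1.61 on replicates 2 to 4, and its other probe missed the mark on all arrays (-3.84, -4.33, -3.95 and -3.38). Over all genes, 551 were detected on exactly 1 array, and 349 of these were on replicate 1, against 97, 76 and 29 on replicates 2 to 4. Of these, 187, 52, 50 and 28 on replicates 1 to 4 lay over 1 log2 unit above the median of the other arrays. Slc39a5 lay 2.18 above it. The reading of Slc39a5 is of a kind that was most frequent on replicate 1, and a second probe that is below the mark throughout cannot check it.

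Among the iron and manganese carriers, Slc11a1 and Slc11a2 were detected and Slc40a1 was not. Slc11a1, the phagosomal metal carrier, read 3.98, 4.03, 4.43 and 4.77 (4.30 ± 0.37), low on replicates 1 and 2. Slc11a2 read 2.42, 2.30, 2.59 and 2.84 (2.54 ± 0.23), and its second probe read 2.43, 2.31, 2.44 and 2.80, so that the positions of both probes on an array differed by at most 0.11. Both probes of Slc40a1, the iron exporter, were below the mark on all arrays, at -4.72, -4.59, -4.09 and -3.37 for the brighter. The value was highest on replicate 4, the dimmest array, as in most members detected on none; Slc39a12 is an exception, at -3.23 there.

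For copper, the neighbours Slc31a1 and Slc31a2 differed in detection. The genes are separated by 1 protein-coding gene in RefSeq. Slc31a2, whose product CTR2 sits in endosomes and lysosomes, read 5.43, 5.58, 5.27 and 5.18 (5.36 ± 0.18), all within 1.32-fold on this scale; its SD was 0.76 with spike-in scaling and 0.42 under normexp. Slc31a1, which encodes the high-affinity copper importer CTR1 of the plasma membrane, was detected on no array and read -4.55, -4.44, -4.36 and -3.25. Both genes have a single probe here, so the reading for Slc31a1 rests on that probe. Their promoters, from the same chromosome and strand of GRCr8, hold 22 CG dinucleotides for Slc31a1 and 26 for Slc31a2. They are shown because these nearby genes differ in detection, and the capitals mark the 1 metal response core, in Slc31a2.

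Slc31a1, chr5:80830590-80830889: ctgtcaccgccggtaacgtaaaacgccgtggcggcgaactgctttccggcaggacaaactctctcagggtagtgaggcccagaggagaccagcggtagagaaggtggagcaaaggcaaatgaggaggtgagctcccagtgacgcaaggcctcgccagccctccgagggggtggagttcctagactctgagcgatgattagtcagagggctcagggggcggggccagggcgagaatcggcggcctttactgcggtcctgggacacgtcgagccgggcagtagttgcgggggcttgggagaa
Slc31a2, chr5:80753368-80753667: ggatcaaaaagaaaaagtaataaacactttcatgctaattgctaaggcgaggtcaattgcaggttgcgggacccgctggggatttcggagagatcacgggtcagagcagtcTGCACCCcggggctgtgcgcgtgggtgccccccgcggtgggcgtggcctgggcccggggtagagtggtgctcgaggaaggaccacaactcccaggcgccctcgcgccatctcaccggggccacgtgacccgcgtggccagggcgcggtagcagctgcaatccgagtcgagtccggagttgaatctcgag

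Slc41a1 and Slc41a3 represented the magnesium carriers. Slc41a1, which extrudes magnesium at the plasma membrane, read 0.06, 0.21, 0.93 and 1.24 (0.61 ± 0.57), a range of 2.27-fold with replicates 1 and 2 low. Slc41a3, a mitochondrial magnesium carrier, read -1.15, -1.29, -0.82 and -0.47 (-0.94 ± 0.37) with the same arrays low. Slc41a2 was detected on no array and read -3.01, -4.17, -2.54 and -2.54.

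The calcium exchangers are a family best known from excitable, retinal and pigment cells. Of these, 3 of 7 were detected on all 4 arrays, which is near the share of all measured genes, 44.4%. In this count Slc8a1 rests on 1 of its 3 probes and Slc24a2 on 1 of its 2. Slc8a2, Slc8a3, Slc24a1 and Slc24a3 were detected on no array. Slc8a1 encodes NCX1, the plasma membrane sodium-calcium exchanger, and read 3.09, 3.30, 2.61 and 2.52 (2.88 ± 0.38) on its brightest probe, high on replicates 1 and 2. Slc8b1, the mitochondrial sodium-calcium exchanger NCLX, read 1.04, 1.08, 1.42 and 1.54 (1.27 ± 0.25), with replicates 3 and 4 high. Slc24a2, a potassium-dependent exchanger of cone photoreceptors and neurons, read 0.89, 0.46, 0.35 and 0.95 (0.66 ± 0.30), high on replicates 1 and 4.

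Probes of the same gene did not always read alike. Of the 8 members with several probes, 3 had every probe detected on all arrays (Slc11a2, Slc39a1 and Slc39a11), 3 had none that was (Slc30a8, Slc39a5 and Slc40a1) and 2 were mixed (Slc8a1 and Slc24a2); over all genes with several probes 26.3% were mixed. For Slc39a1 the second probe read -0.84, -0.71, 0.03 and 0.11, far below the first in level but in a like pattern, and the largest gap between the positions of both probes on an array was 0.19. For Slc8a1 the other probes were detected on 3 arrays each and read -1.50, -1.75, -1.27 and -1.08 for the first and -1.04, -1.60, -1.37 and -2.35 for the second. Positions of the Slc8a1 probes differed by up to 1.08. On replicates 1 and 2 the brightest probe lay at 0.28 and 0.48. The first of the others lay at -0.03 and -0.29 there, and the second at 0.62 and 0.05. A high value on replicate 1 was thus shared by 1 other probe, while that on replicate 2 rests on the brightest probe. On replicates 3 and 4 the brightest probe lay at -0.33 and -0.46. There the first of the others lay at 0.07 and 0.22, and the second at 0.16 and -0.86. The low value on replicate 4 was thus shared by 1 other probe, and that on replicate 3 by none. The second probe of Slc24a2 was detected on no array, and with all probes required 19 of 37 members were detected (51.4%, beside 38.6% of all genes), without Slc8a1 and Slc24a2.

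**Figure D3:**
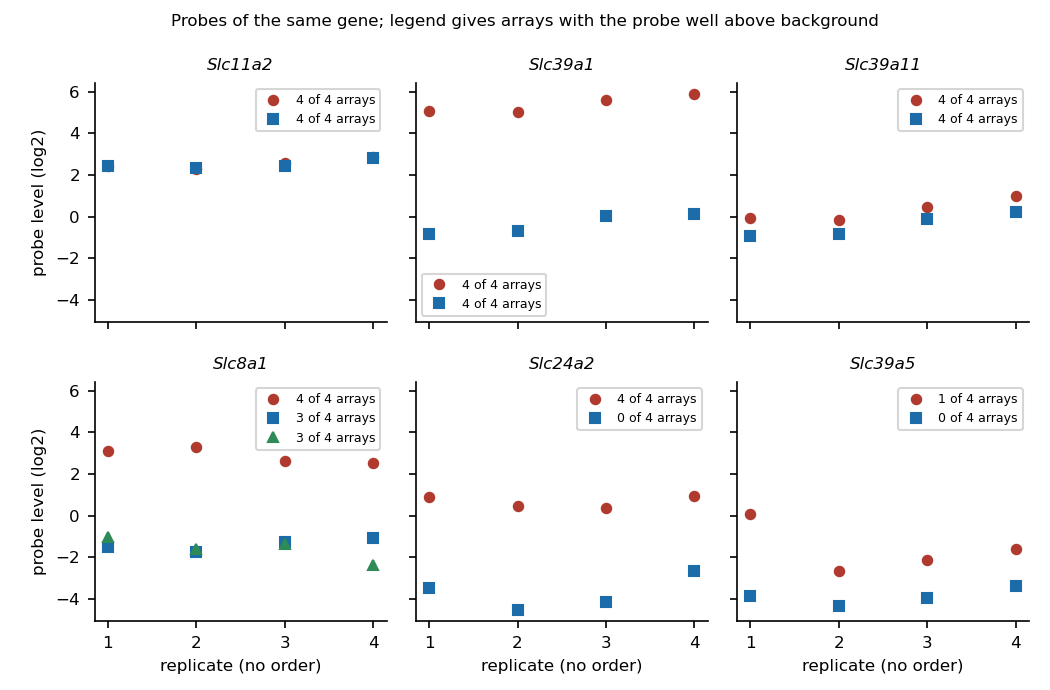
Level of each probe of 6 members with several probes, in log2 units relative to the array's 75th percentile, on the 4 arrays; colours and symbols are probes of the same gene. The probes of Slc11a2 coincide, those of Slc39a1 and Slc39a11 run in parallel, and those of Slc8a1 and Slc39a5 do not. Both probes of Slc24a2 are higher on replicates 1 and 4 than on replicates 2 and 3. Their changes differ in size, and the second is below the mark on all arrays.

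The spread between cultures was set beside that of all 7364 genes detected on all 4 arrays. The 21 detected members had SDs from 0.17 to 0.64 with a median of 0.30, beside a median of 0.25 in all detected genes. An SD above 0.5 was found in 3 members, Slc30a3, Slc41a1 and Slc39a11 (14.3%), beside 11.6% of all detected genes, which is near the background. These 3 also had an array more than 1 log2 unit away from the other arrays' median, as did 8.89% of all detected genes. Which members were wide depended on how the arrays were scaled. With the 75th percentile taken over detected probes 1 member was wide, Slc30a3 (all genes 8.99%). After normexp background correction, with its offset of 50, 1 was, Slc8a1 (7.01%). Quantile normalization gave the first 3 members again (9.07%). With spike-in scaling 8 were, Slc24a2, Slc30a6, Slc30a7, Slc31a2, Slc39a2, Slc39a6, Slc39a8 and Slc8a1, none of which was among the first 3; there 54.0% of all detected genes were wide. Without replicate 4, 1 member was wide, Slc30a3 (5.60%). Without replicates 1, 2 and 3 in turn 4, 3 and 4 were (14.5%, 11.4% and 16.6%), with Slc39a3 added to the first 3 where there were 4.

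**Figure D4:**
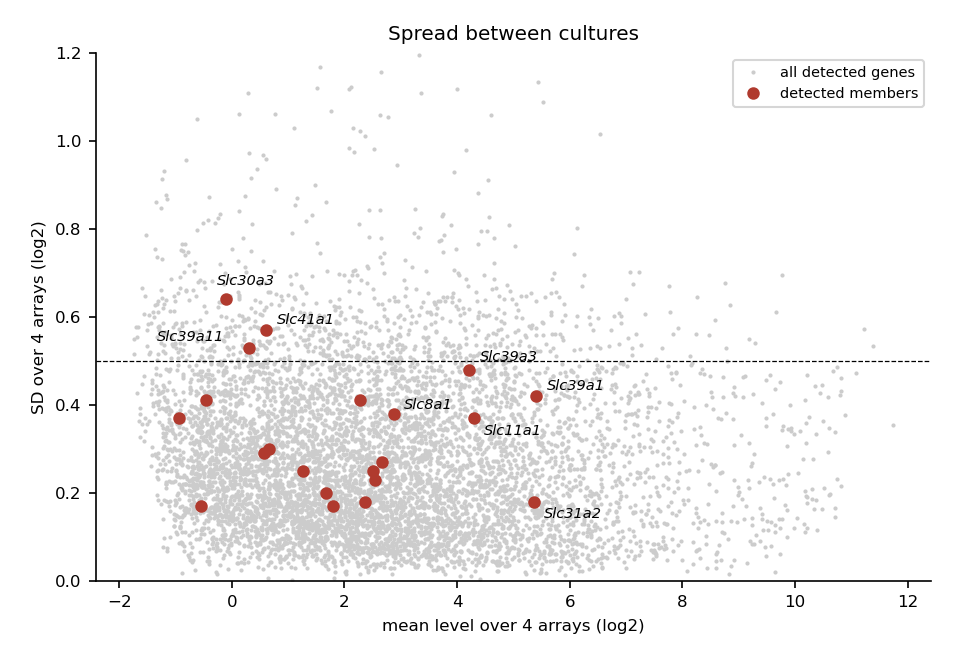
SD over the 4 arrays against mean level, both in log2 units, for the 21 detected members (red) and all 7364 detected genes (grey); the dashed line is an SD of 0.5, and 28 genes lie above the upper end of the axis at 1.2. The members lie among the other genes, with 3 above the line.

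The position of each member on an array was then taken as its level minus its own mean, relative to the median detected gene of that array. This position does not change when a whole array is rescaled. The median gene itself lay at -0.07, -0.07, 0.06 and 0.10 on replicates 1 to 4, and at 0.31, 0.45, -0.03 and -0.71 with spike-in scaling. The detected members had median positions of -0.15, -0.17, 0.11 and 0.19 on the 4 arrays. Above the median gene were 7, 6, 15 and 14 of the 21 members, beside 50.0% of all detected genes on each array by construction. Most members therefore lay under the median gene on replicates 1 and 2 and over it on the other arrays. The shifts of a gene sum to about 0 over the arrays, so these are not 4 separate results. Without replicate 4 the median positions on replicates 1 to 3 were -0.04, -0.10 and 0.19. On replicate 3 the median position was 0.05 without replicate 1 and 0.03 without replicate 2. The signs held whichever array was left out. With each array being 1 culture there is no test of a condition in these positions.

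The zinc importers had median positions of -0.21, -0.32, 0.14 and 0.34, and the 2 detected magnesium carriers of -0.32, -0.32, 0.16 and 0.45. For the 2 detected iron and manganese carriers they were -0.15, -0.19, 0.04 and 0.29. The 4 detected zinc exporters had -0.06, -0.09, 0.22 and 0.02, and the 3 detected calcium exchangers had 0.28, -0.12, -0.33 and 0.17. Of the 9 detected zinc importers, 2, 3, 8 and 6 lay above the median gene on replicates 1 to 4, beside 50.0% of all detected genes. Slc30a7 (0.23, 0.09, -0.29 and -0.05), Slc31a2 (0.13, 0.28, -0.15 and -0.28), Slc39a8 (0.17, 0.27, -0.16 and -0.30) and Slc8a1 (0.28, 0.48, -0.33 and -0.46) stood the other way, over the median gene on replicates 1 and 2 only. For Slc8a1 this is the brightest probe, and its other probes lay at 0.07 and 0.16 on replicate 3. Slc30a1 took positions of -0.17, -0.17, 0.22 and 0.09. Over 84 positions of 21 members on 4 arrays, 9 changed sign under normexp and 2 under quantile normalization, and 0 changed sign from at least 0.1 on one side to at least 0.1 on the other. The signal of the arrays moved with these positions, the 75th percentile being 98.5 and 49 on replicates 3 and 4 against 128 and 131; its part in them was not tested.

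**Figure D5:**
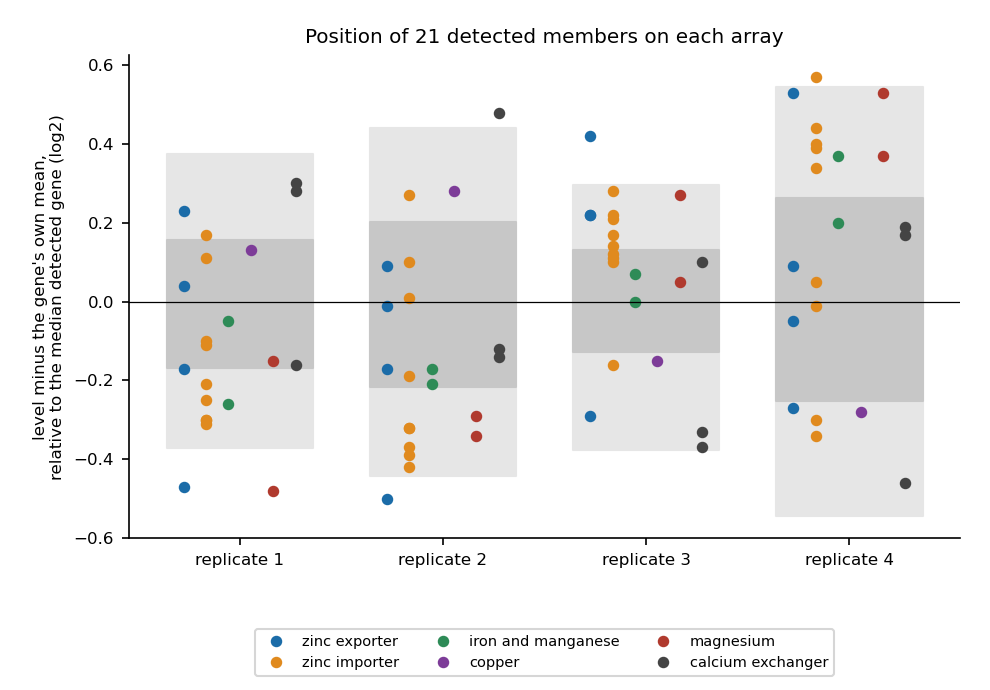
Position of the 21 detected members on each array, as level minus the gene's own mean and relative to the median detected gene, in log2 units; colours are ions, and the dark and light bands hold the central 50% and 90% of all 7364 detected genes. Most members lie below 0 on replicates 1 and 2 and above 0 on replicates 3 and 4, and nearly all lie within the light bands.

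Other genes of metal handling were read from a list of 40, of which 38 were measured and 28 were detected on all arrays (73.7%, beside 44.4% of all genes). Mt1, a metallothionein gene that MTF1 induces, read 4.61, 4.59, 5.42 and 5.71 (5.08 ± 0.57), and Fth1, the ferritin heavy chain gene, read 10.60, 10.46, 10.73 and 11.49 (10.82 ± 0.46). Tfrc, the transferrin receptor gene, read 3.51, 3.56, 3.09 and 2.68 (3.21 ± 0.41), and Atp7a, the copper-exporting ATPase gene, read 2.06, 2.13, 2.04 and 1.39 (1.91 ± 0.34). Mt2A, the other metallothionein gene detected on all arrays, added here after its values were seen, read 0.37, 0.17, 0.73 and 0.66 (0.48 ± 0.26) and was highest on replicate 3, whereas Mt1 was highest on replicate 4. Of the 28 detected genes, 2 had an array more than 1 log2 unit away from the other arrays' median (7.14%, beside 8.89% of all detected genes), which is no more than the background. They were Mt1 and Atp13a2, a lysosomal ATPase gene that read 3.63, 3.47, 4.41 and 4.72 (4.06 ± 0.60).

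Mtf1 itself was detected on 2 arrays and read -1.72, -1.38, -3.61 and -1.81; on replicate 3 its probe lies in the low-signal area. Mcu, the pore of the mitochondrial calcium uniporter, was detected on 3 arrays, with levels between -1.39 and -0.48. Atp7b was detected on 3 arrays, Ireb2, Steap3, Cp and Heph on 2, and Mt3, Hamp and Slc46a1 on none. Pcbp1 and Flvcr1 had no named probe. Cp and Heph encode the ferroxidases that act with ferroportin, whose own gene Slc40a1 was detected on no array.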

How the data were processed

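Each of the 4 samples is 1 one-colour (Cy3) array; 100 ng of RNA was labelled, with RIN above 7.5, per the labels' protocols. The authors deposited linear spot intensity values read by Agilent Feature Extraction 11.0.1.1 per the submitters' processing notes, with background and spatial trend removed array by array and no normalization between arrays, per the file headers. From them, log2 was taken, spots marked as outliers were left out (1 member spot), repeated spots were averaged per probe, and every array was shifted so that the 75th percentile over its 45598 sample probes lay at 0. Probes were named through their accession in RefSeq's GRCr8 table (21102 matched), and the brightest probe stood for its gene. A gene with several promoters in the table was counted once, by the promoter with most sites, and by the one with most CG for base composition. The headers name an older build, so coordinates are given for RefSeq promoters only. Detection needed over 50% of a probe's spots. Per-gene statistics are SDs over 4 arrays; with 1 group there is no test. The labels call the replicates biological. The number of arrays limits the precision, and arrays give no read depth.

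The members and lists were chosen with earlier results of these data known. All measured members are named; members detected on all arrays are given on every array, and listed genes of metal handling by a fixed choice. The area of low signal on replicate 3 was taken as spots whose neighbourhood of 8 spots each way had a median below -0.5 log2 against the other arrays. The spread steps were checked on simulated data. Alternatives changed the scaling, background correction (normexp, offset 50, limma 3.58.1 in R 4.3.3, on the raw spot and background medians), spot marks, probe rule, detection rule and the arrays used. Python 3.11.15, numpy 2.4.6 and pandas 2.3.3 were used. Protein sequences were not used here.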

Additional observations from a re-analysis of the deposited data

How the results depend on the processing

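The count of detected members was 21 in each of the settings that changed spot marks or left out the area of low signal, from 21 to 23 without 1 replicate, 23 at 3 of 4 arrays, 26 with the looser mark and 19 with all probes required. The median SD of detected members was 0.28 to 0.32 without 1 replicate, 0.37 with spike-in scaling and 0.26 under normexp. Members with an SD above 0.5 numbered 1 with the 75th percentile over detected probes, beside 8.99% of all detected genes. They numbered 8 with spike-in scaling (54.0%), 1 under normexp (7.01%) and 1 to 4 without 1 replicate (5.60% to 16.6%). In the same order, members with an array more than 1 log2 unit away from the other arrays' median numbered 1, 6, 1 and 1 to 3. The share of all detected genes past that distance was counted in the main setting only (8.89%), so these counts have no background beside them. The median shift of the members from their own means, -0.22, -0.24, 0.17 and 0.29 on replicates 1 to 4, changed sign with spike-in scaling to 0.15 on replicate 1, 0.28 on replicate 2 and -0.52 on replicate 4; that scaling moves whole arrays. Under normexp it was -0.13, -0.07, 0.13 and 0.02. Without 1 replicate it was -0.31 to -0.08 on replicate 1, -0.31 to -0.14 on replicate 2, 0.07 to 0.27 on replicate 3 and 0.22 to 0.32 on replicate 4. With the mean over probes in place of the brightest, the levels of Slc24a2, Slc39a1 and Slc8a1 became -1.53, 2.53 and -0.04. Names from a gene name column were not run, since the files used here carry accessions only. No paired analysis was possible because the samples form 1 group. Of the members not detected on all arrays, 2 were gained without replicate 4, and 13 were detected on no array, the brighter ones included.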
